A study of Mus musculus with 5 samples.

Results

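The prostaglandin genes described here are 8 genes of the 32285 in the count tables: the cyclooxygenases Ptgs1 and Ptgs2, the terminal synthases Ptges, Ptgis and Ptgds, the uptake transporter Slco2a1, the receptor Ptger4 and the breakdown enzyme Hpgd. They were picked by symbol, with earlier results of these libraries known, and Hpgd was picked partly because its difference between genotypes went in opposite directions in different lineages. Levels per cell class and the Het and KO values of Hpgd are therefore given as descriptions, without a test. The other 7 genes have a test of genotype, with p-values adjusted over all genes measured in the same fit.

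The data are single-cell RNA counts from the lungs of 5 mouse embryos at E18.5, shortly before birth, dissociated whole and sequenced as a separate library for each. ZSWIM8 is the substrate receptor of a cullin ubiquitin ligase through which certain microRNAs are degraded. The 2 Het libraries came from Zswim8+/- embryos and the 3 KO libraries from Zswim8-/- embryos. The Het group carries 1 mutant allele and serves as the control, no wild-type lung was analysed here, and the allele, the strain and the litters are not given in the sources used here. Het1, Het2 and KO3 came from males and KO1 and KO2 from females by their Xist and Y-linked counts, so sex is partly confounded with genotype. The p-values measure the spread between these 5 embryos.

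Prostaglandins are made from arachidonic acid that phospholipases free from membranes. A cyclooxygenase (PTGS1, present in many resting cells, or PTGS2, which is induced) turns it into prostaglandin H, and a terminal synthase turns that into prostaglandin E (PTGES), prostacyclin (PTGIS) or prostaglandin D (PTGDS). Prostaglandins act on cells nearby through G protein-coupled receptors such as PTGER4, a receptor for prostaglandin E. The signal is ended when SLCO2A1 carries the prostaglandin into a cell and HPGD oxidises it there, a step for which the lung is known, since it clears prostaglandins from the blood that passes through it. Around birth the fall of prostaglandin E in the circulation is part of the closure of the ductus arteriosus.

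The tables held 8722 to 13539 barcodes and 56608582 to 93708304 unique molecular identifiers (UMIs, counted RNA molecules) per library, of which 3051 to 4634 cells were kept. Any pair of libraries shared 0 to 6 barcodes among kept cells. Zswim8 itself had a level of 36.2 and 38.1 UMIs per 1e+06 in Het and of 38.1, 39.1 and 41.0 in KO (log2 difference 0.05, SE 0.06, edgeR adjusted p = 0.594). The libraries labelled KO were thus not lower in Zswim8. A count at the 3′ end would not show a deletion elsewhere in the gene, so it does not check the labels, and every direction below is between libraries labelled Het and KO. The cells fell into 66 clusters, and clusters that carried the markers of a cell type are called by its name with "-like". Named classes held 58.6% of the kept cells and the 4 lineages (epithelial, endothelial, mesenchymal and immune) 92.9%. Levels by class are described for the 15 classes that had 20 or more cells in each library, and the orders given cover these. A level is the UMIs of a gene per 1e+06 UMIs (CPM) of all cells of that class in a library. Counts came from the 3′ end and are not scaled by length, so a level is compared between cells and not between genes. Red-cell barcodes, which should lack these genes, give the level of free RNA.

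The promoters of the 3 genes on which the differences between genotypes turn are shown first. They are those of Hpgd and Slco2a1, which lay lower together in KO endothelial cells, and of Ptges, which was lower in KO immune cells. Each runs from 250 bases before to 50 bases after the transcription start, 5′ to 3′ on the strand of the gene. The starts are those of RefSeq on GRCm38.p6, where 7 of the 8 genes were matched. The gene spans given further below come from another annotation, GENCODE, and have other starts for these 3 genes. The Slco2a1 and Ptges windows lie inside those spans, and the Hpgd span begins inside its window. The windows are chr8:56294302-56294601 on the plus strand (Hpgd), chr9:103008237-103008536 on the plus strand (Slco2a1) and chr2:30903248-30903547 on the minus strand (Ptges). Capitals mark TATAAA and GGGCGG (or its reverse complement), the motifs found in them.
Hpgd: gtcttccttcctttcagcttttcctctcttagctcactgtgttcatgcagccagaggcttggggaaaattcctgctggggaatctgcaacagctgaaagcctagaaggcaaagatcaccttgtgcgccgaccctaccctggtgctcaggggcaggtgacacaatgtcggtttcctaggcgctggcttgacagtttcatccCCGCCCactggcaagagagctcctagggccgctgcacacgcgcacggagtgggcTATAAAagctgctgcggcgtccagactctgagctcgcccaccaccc
Slco2a1: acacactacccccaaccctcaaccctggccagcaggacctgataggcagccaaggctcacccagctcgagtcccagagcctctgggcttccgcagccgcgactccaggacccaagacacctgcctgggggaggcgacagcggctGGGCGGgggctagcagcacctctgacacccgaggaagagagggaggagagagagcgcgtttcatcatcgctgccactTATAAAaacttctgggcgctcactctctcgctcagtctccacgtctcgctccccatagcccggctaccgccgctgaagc
Ptges: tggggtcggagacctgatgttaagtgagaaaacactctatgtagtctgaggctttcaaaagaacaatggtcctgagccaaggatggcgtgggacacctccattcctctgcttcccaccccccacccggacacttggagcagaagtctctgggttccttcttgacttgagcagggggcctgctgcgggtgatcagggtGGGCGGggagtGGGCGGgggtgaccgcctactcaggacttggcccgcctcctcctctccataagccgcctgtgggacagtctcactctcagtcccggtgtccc

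Hpgd and Slco2a1 both held TATAAA, which began at position 5 in Hpgd and at position -29 in Slco2a1, counted from the RefSeq start. The GENCODE span of Hpgd begins later, at 56294585, so TATAAA lies before that start. TATAAA on the gene's or the other strand was in 13.6% of the 32851 promoters of the same length, and in 2 of the 7 matched here. GGGCGG was in 35.7% of promoters and in 5 of the 7 (Hpgd, Slco2a1, Ptges, Ptgs2 and Ptger4). CACGTG (7.15% of promoters) was found in Ptgs2, TGACTCA (5.20%) in Ptgds, CCAAT (37.4%) in Ptger4, and TGACGTCA (1.79%) and CCGGAAG (8.86%) in none of the 7, all read on both strands. The promoter of Ptgs1 held none of these motifs. The GC content was 58.0% in Hpgd, 64.0% in Slco2a1 and 60.0% in Ptges against a median of 52.7% over all promoters, with 12, 18 and 10 CpG against a median of 7. These matches describe the letters only.

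Of the 7 tested genes, 3 passed in at least 1 sum: Ptges, a synthase of prostaglandin E, the uptake transporter Slco2a1 and, in AT2-like cells, Ptgds, a synthase of prostaglandin D. In sums over every kept cell, 1 of 7 passed the edgeR threshold of an adjusted p of 0.05, Ptges, which was lower in KO, where 3.69% of all tested genes passed. In endothelial sums 1 of the 4 tested passed (Slco2a1, lower in KO; 5.00% of all genes passed), in epithelial sums 1 of 7 (Ptges, lower; 10.7%), in immune sums 1 of 6 (Ptges, lower; 7.88%) and in mesenchymal sums 0 of 7 (0.0575%). With 4 to 7 genes tested per sum, 1 call is not far above these shares. The mesenchymal 0 was also 0 with DESeq2, and 3 of the 7 had an unadjusted edgeR p under 0.05 there. The median log2 difference over the tested members was -0.03 in the whole library, -0.34 in endothelial, 0.23 in epithelial, 0.10 in immune and -0.25 in mesenchymal sums, against medians of -0.01 to 0.01 over all genes. In a sum over many cells, fewer cells of a type and less RNA per cell cannot be told apart.

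**Figure D1:**
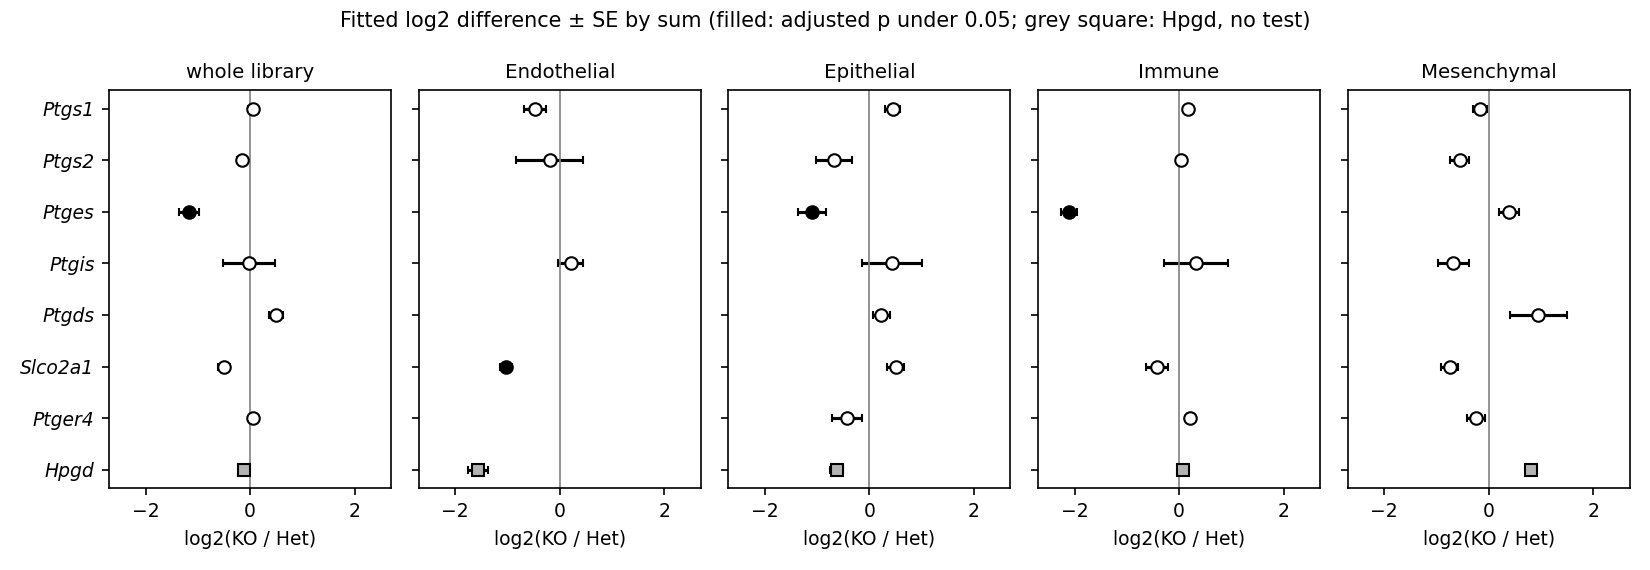
Fitted log2 differences of the 8 genes between 3 KO-labelled and 2 Het libraries (x axis; bars are the SE), for all kept cells and for each lineage. Filled circles passed an adjusted p of 0.05 (Ptges in the whole library, epithelial and immune sums and Slco2a1 in endothelial sums), open circles did not, and the grey squares of Hpgd carry no test; genes with too few counts to be tested have no symbol.

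Ptgs1 (ENSMUSG00000047250, GRCm38 chromosome 2, 36230426 to 36252272, plus strand), the cyclooxygenase of resting cells, was spread over all 4 lineages. Its level was highest in mesothelial-like cells, the lining of the lung surface, at 149 to 252 CPM over the 5 libraries. Interstitial macrophage-like cells (156 to 174 CPM), AT1-like cells (142 to 172.5 CPM), AT2-like cells (91.1 to 145 CPM) and myofibroblast-like cells (96.5 to 131.5 CPM) followed, and neighbours in this order overlapped. All of these lay above the next class, alveolar macrophage-like cells (44.6 to 70.7 CPM). Red-cell barcodes were at 2.76 to 6.32 CPM.

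Ptgs1 passed no test of genotype in any sum. In epithelial sums it was at 64.5 and 83.4 CPM in Het and at 88.6, 107 and 120.4 in KO, a log2 difference of 0.44 (SE 0.15, edgeR adjusted p = 0.0974). The KO libraries lay above the Het libraries without overlap. In AT2-like cells it was at 91.1 and 107 CPM in Het and at 130.4, 145 and 144 in KO (log2 difference 0.33, SE 0.11, edgeR adjusted p = 0.0770), again without overlap. In endothelial sums the order was reversed, with 18.1 and 30.8 CPM in Het and 18.0, 17.4 and 16.5 in KO (log2 difference -0.48, SE 0.22, edgeR adjusted p = 0.263). Cells in which 3 or more markers of a second lineage had UMIs are called mixed cells here. The mark is not scaled by UMIs per cell, so it falls more easily on cells with many UMIs. Mixed cells held 49.3% to 73.0% of the endothelial Ptgs1 UMIs. Without them the endothelial levels were 11.9 and 15 CPM in Het and 16.2, 14 and 19.1 in KO, with overlap and the other sign (log2 difference 0.30, adjusted p = 0.525), and the epithelial log2 difference was 0.08 (adjusted p = 0.881). Interstitial macrophage-like cells were at 167 and 174 CPM in Het and at 159.9, 156 and 159 in KO, a log2 difference of -0.13 (SE 0.10, edgeR adjusted p = 0.671).

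Ptgs2 (ENSMUSG00000032487, chromosome 1, 150100031 to 150108227, plus strand), the inducible cyclooxygenase, was mainly an immune transcript in these lungs. Immune cells held 86.5% to 93.2% of its UMIs, against 40.04% to 44.4% of those of Ptgs1. The highest class was neutrophil-like cells at 459.9 to 910.5 CPM, which overlapped monocyte-like cells at 487 to 707 CPM. Dendritic-like cells (267 to 481 CPM) lay below the monocyte-like cells without overlap and overlapped interstitial macrophage-like cells (187 to 310.4 CPM). In AT1-like, AT2-like and general capillary-like cells it was at 0 to 9.93 CPM, and in red-cell barcodes at 1.80 to 3.84 CPM.

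Summed over immune cells, Ptgs2 was at 201 and 195 CPM in Het and at 199, 223 and 217 in KO, a log2 difference of 0.04 with a 95% interval of -0.09 to 0.18 (edgeR adjusted p = 0.767). Within neutrophil-like cells it was at 910.5 and 891 CPM in Het and at 497, 459.9 and 703 in KO. Both Het libraries lay above all KO libraries, with a log2 difference of -0.79 (SE 0.17), but the edgeR adjusted p of 0.190 missed the threshold, which 0.0562% of genes passed in that class, while DESeq2 called it. The neutrophil-like cells comprised 3 clusters. In the one led by Csf3r, Cxcr2 and Il1r2, genes of mature neutrophils, Ptgs2 was at 1652 and 1567 CPM in Het and at 857, 701 and 1210 in KO. In the one led by the granule genes Camp, Ltf and Ngp it was at 88.0 and 136 CPM in Het and at 41.0, 113 and 54.2 in KO. The Het libraries lay above the KO libraries in the first and overlapped them in the second, and the median UMIs per cell were 3425 and 6981.

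In alveolar macrophage-like cells the level of Ptgs2 depended on which cluster was read. The class as a whole was at 123 and 105 CPM in Het and at 63.8, 82.6 and 119 in KO (log2 difference -0.45, SE 0.17, edgeR adjusted p = 0.124). It comprised a cluster led by Ear2, Lpl and Plet1 and a smaller one led by Atp6v0d2, Car4 and Spp1, which numbered 151 and 159 cells in Het and 1, 12 and 23 in KO. Without the Atp6v0d2-led cells, a choice made after seeing the data, Ptgs2 was at 23.4 and 19.99 CPM in Het and at 64.7, 37.6 and 33.7 in KO. It was then called higher in KO (log2 difference 0.97, SE 0.23, edgeR adjusted p = 0.0377; 1.94% of genes passed). With mixed cells left out of the whole class, in contrast, Ptgs2 was called lower in KO (log2 difference -0.53, SE 0.14, edgeR adjusted p = 0.0296). In the Atp6v0d2-led cells it was at 254 and 202 CPM in Het, and at 323 and 560.1 in KO2 and KO3, with 0 UMIs in the single cell of KO1. The lower value of the class in KO thus went with fewer cells of its higher cluster, while the level within each cluster was not lower in KO2 and KO3.

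**Figure D2:**
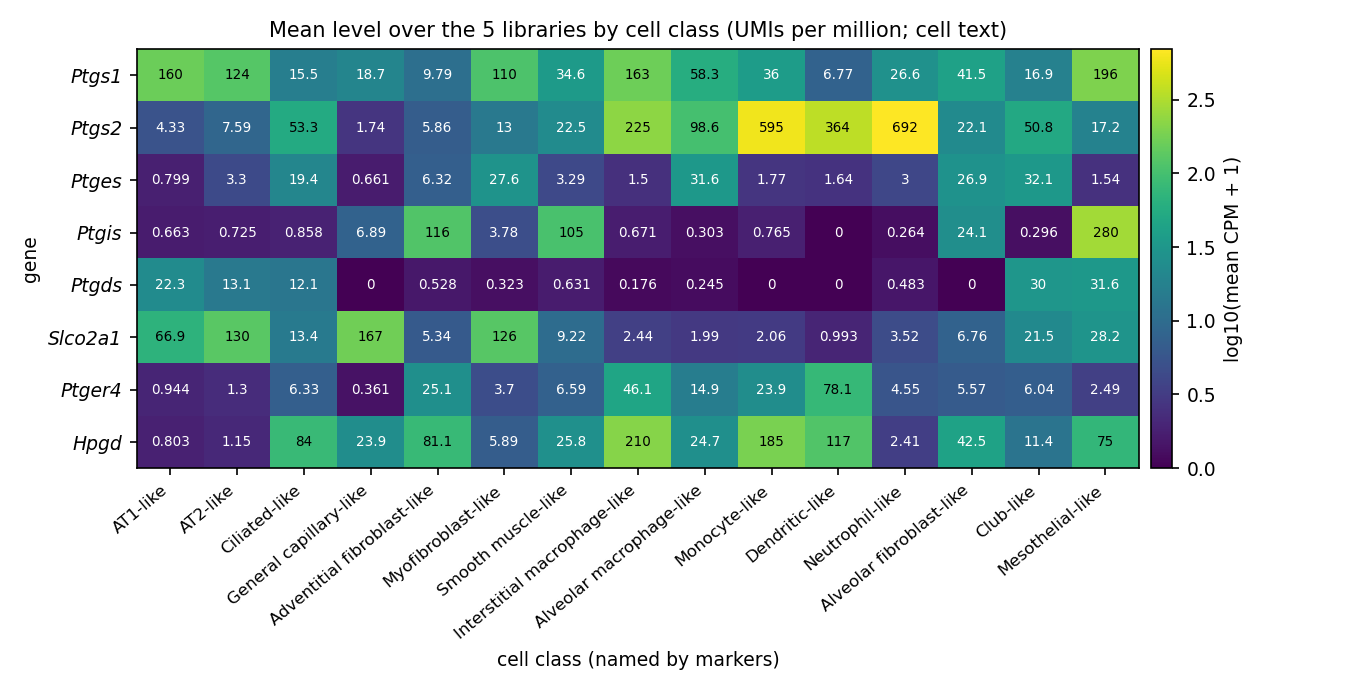
Mean level over the 5 libraries (number and colour, log10 of CPM + 1) of each gene in the 15 described classes. Rows are to be read across, since counts are not scaled by length: Ptgs2 peaks in neutrophil-like and monocyte-like cells, Ptgs1 and Ptgis in mesothelial-like cells, Slco2a1 in general capillary-like cells and Hpgd in interstitial macrophage-like and monocyte-like cells.

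Ptges (ENSMUSG00000050737, chromosome 2, 30889471 to 30929863, minus strand) encodes the inducible microsomal synthase of prostaglandin E that works with PTGS2. It had the largest called differences among the 7 genes, in immune cells. In immune sums it was at 15.4 and 21.8 CPM in Het and at 4.3, 4.21 and 4.95 in KO. Every KO library lay below both Het libraries, 4.303-fold lower by the fit (log2 difference -2.11, SE 0.16, edgeR adjusted p = 0.000511). Immune cells gave 64.3% and 69.7% of all Ptges UMIs in Het and 21.9%, 35.7% and 38.3% in KO.

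Alveolar macrophage-like cells were at 46.7 and 68.4 CPM in Het and at 9.99, 18.0 and 14.8 in KO, a log2 difference of -2.13 (SE 0.22, edgeR adjusted p = 0.000168; 8.87% of genes passed in this class). Within them the Atp6v0d2-led cluster was at 94.6 and 137 CPM in Het and at 53.2 and 52.5 in KO2 and KO3, while KO1 had 1 cell and 0 UMIs. This cluster held 259 and 450 Ptges UMIs in Het and 0, 14 and 24 in KO. The other alveolar macrophage-like cluster, with 257 and 261 cells in Het and 77, 96 and 151 in KO, overlapped between groups: it was at 10.5 and 7.29 CPM in Het and at 10.1, 11.4 and 7.58 in KO. The fit of the class without the Atp6v0d2-led cells gave a log2 difference of 0.05 (SE 0.31, edgeR adjusted p = 0.967).

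A part of the immune difference remained outside those cells. Without the Atp6v0d2-led cluster, Ptges in immune sums was at 6.97 and 7.10 CPM in Het and at 4.31, 3.60 and 4.15 in KO (log2 difference -0.85, SE 0.13, edgeR adjusted p = 0.00908; 6.24% of genes passed). One further cluster that had Ptges was an unnamed immune one led by Arg1, Spp1 and Inhba. It held 22 and 31 cells in Het and 1, 3 and 9 in KO, and its level was 51.6 and 54.1 CPM in Het and 0, 12.9 and 8.84 in KO. The summed level of 14 alveolar macrophage markers in the immune sums was 2390 and 2599 CPM in Het and 1204, 1258 and 1559 in KO, and that of 12 interstitial macrophage markers 1933 and 1788 against 5163, 3587 and 3777.

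**Figure D3:**
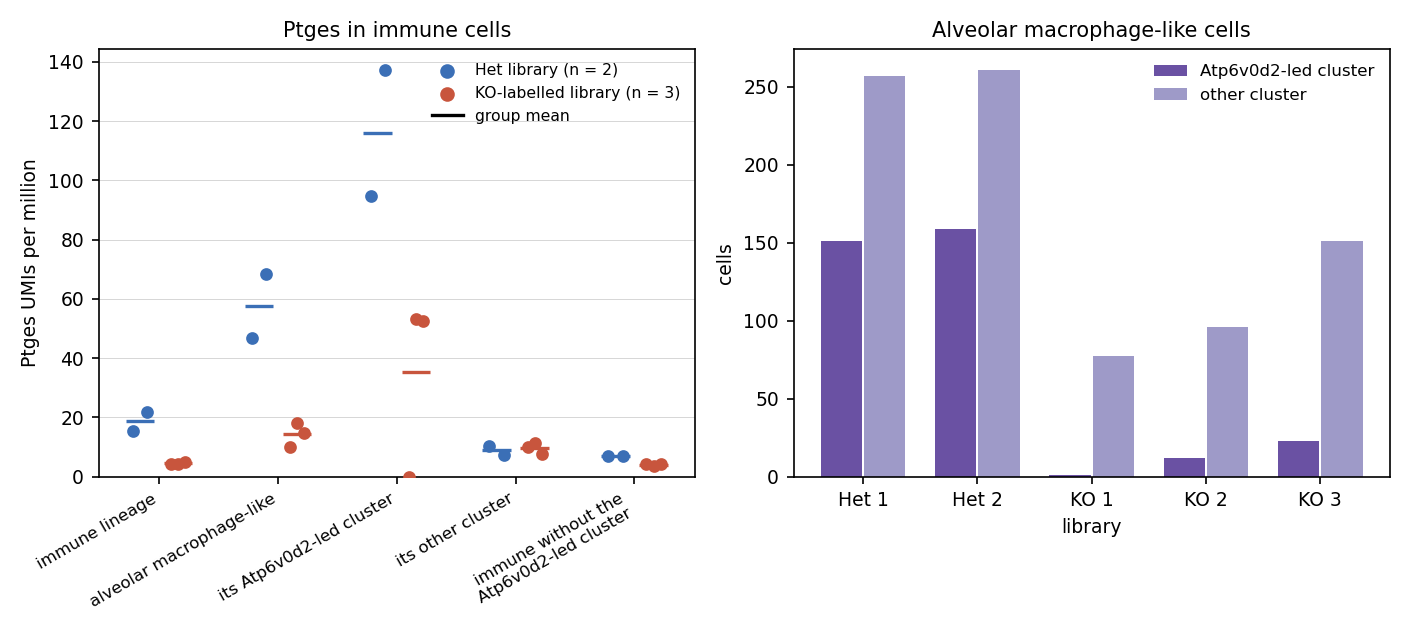
Left, Ptges level (CPM) in each Het (blue, n = 2) and KO-labelled (red, n = 3) library, with group means as lines, for the immune lineage, alveolar macrophage-like cells, the 2 clusters of that class and the immune lineage without the Atp6v0d2-led cluster. Right, number of cells of the 2 clusters in each library: the Atp6v0d2-led cluster numbers 151 and 159 cells in Het and 1, 12 and 23 in KO, and its level is the highest of those plotted.

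Over all kept cells Ptges was at 10.9 and 14.8 CPM in Het and at 6.98, 4.99 and 5.49 in KO (2.26-fold lower, log2 difference -1.18, SE 0.19, edgeR adjusted p = 0.0370). The call was lost without the Atp6v0d2-led cluster (log2 difference -0.42, adjusted p = 0.243) and with sex as a covariate (-1.28, adjusted p = 0.215). It was also lost without Het1, Het2, KO2 or KO3 (adjusted p of 0.149, 0.215, 0.0696 and 0.103). In epithelial sums it was at 10.6 and 14.6 CPM in Het and at 8.90, 4.73 and 5.57 in KO (log2 difference -1.09, SE 0.27, edgeR adjusted p = 0.0366). The 10 club markers, 0 of which were at 0, summed to 20020 and 23250 CPM in Het and to 8380, 7564 and 5679 in KO in the same sums, and their part in the difference was not tested. Mixed cells held 48.5% to 82.2% of the epithelial Ptges UMIs. Without them the levels were 6.66 and 6.94 CPM in Het and 6.40, 10.2 and 4.58 in KO, and the log2 difference was -0.09 (adjusted p = 0.930). The epithelial call was lost as well with the sex covariate (adjusted p = 0.0911) and without Het1, Het2, KO2 or KO3 (adjusted p of 0.106, 0.228, 0.119 and 0.0832).

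Club-like, myofibroblast-like and alveolar fibroblast-like cells were the other places of Ptges, at 13.4 to 56.0, 15.5 to 49.3 and 17.4 to 31.9 CPM, and these ranges overlapped that of alveolar macrophage-like cells. In alveolar fibroblast-like cells it was at 24.1 and 17.4 CPM in Het and at 29.6, 31.6 and 31.9 in KO, too few cells in Het2 (27) for a test. Mesenchymal sums were at 8.74 and 7.35 CPM in Het and at 11.5, 10.0 and 9.20 in KO (log2 difference 0.38, SE 0.19, edgeR adjusted p = 0.474). Interstitial macrophage-like and monocyte-like cells, high in Ptgs2, had Ptges at 0 to 3.63 CPM, and red-cell barcodes were at 0.247 to 0.947 CPM.

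Ptgis (ENSMUSG00000017969, chromosome 2, 167191805 to 167240604, minus strand), the prostacyclin synthase, was a mesenchymal transcript. The mesenchymal lineage held 87.6% to 95.8% of its UMIs. Mesothelial-like cells were highest (168 to 448 CPM) and did not overlap the next class. Adventitial fibroblast-like cells (98.1 to 132 CPM) and smooth muscle-like cells (71.8 to 155 CPM), which sit around airways and vessels, overlapped each other, and alveolar fibroblast-like cells (12.2 to 40.5 CPM) lay below both.

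No test of Ptgis passed. Mesenchymal sums were at 94.2 and 207 CPM in Het and at 109, 75.9 and 92.5 in KO (log2 difference -0.68, SE 0.29, edgeR adjusted p = 0.423). Het2 stood apart: it had 46 of the 93 cells of a mesothelial-like cluster led by Aebp1, Fbln2 and Wt1, at 504 CPM, against 3 cells in Het1 and 8 to 27 in KO. Without mesothelial-like cells, again chosen after seeing the data, the mesenchymal levels were 65.8 and 96.7 CPM in Het and 73.1, 53.8 and 62.1 in KO, and the log2 difference was -0.33 (adjusted p = 0.407). Smooth muscle-like cells were at 117 and 155 CPM in Het and at 71.8, 99.6 and 79.9 in KO (log2 difference -0.69, SE 0.19, edgeR adjusted p = 0.525). General capillary-like cells had 4.92 to 8.62 CPM, above the red-cell barcodes (0 to 1.02 CPM).

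Ptgds (ENSMUSG00000015090, chromosome 2, 25466709 to 25470046, minus strand), the lipocalin-type synthase of prostaglandin D, was low and epithelial or mesothelial. Mesothelial-like (13.2 to 61.3 CPM), club-like (19.2 to 40.5), AT1-like (18.1 to 31.8), AT2-like (5.22 to 18.3) and ciliated-like cells (9.75 to 15.4) overlapped in this order. All other described classes were at 0 to 1.61 CPM, which ciliated-like cells did not overlap, and red-cell barcodes were at 0.0823 to 1.62 CPM.

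AT2-like cells, the surfactant-making cells of the alveoli, were the one class in which Ptgds passed. It was at 5.22 and 8.49 CPM in Het (30 and 36 UMIs) and at 15.5, 18.3 and 17.9 in KO (51, 92 and 131 UMIs). The KO libraries lay above both Het libraries, 2.30-fold higher by the fit (log2 difference 1.20, SE 0.22, edgeR adjusted p = 0.00677; 11.6% of genes passed in this class). The call was lost without Het1 (log2 difference 0.87, adjusted p = 0.117) and with the sex covariate (1.22, adjusted p = 0.0621). The class comprised 2 clusters in unequal numbers. One, led by Lyz1, Retnla and S100g, held 215 and 124 cells in Het and 33, 32 and 73 in KO, with Ptgds at 3.17 and 3.53 CPM in Het and at 10.2, 3.49 and 9.68 in KO. The other, led by Egfl6, Lgi3 and Ppp1r14c, held 65 and 58 cells in Het and 74, 69 and 112 in KO, with Ptgds at 8.33 and 12.9 CPM in Het and at 16.2, 20.2 and 19.6 in KO. In this second cluster the KO libraries lay above the Het libraries, and in the first KO2 did not. No test was run per cluster. In AT2-like cells the 10 AT1 markers, 0 of which were at 0, summed to 2385 and 3245 CPM in Het and to 3714, 3236 and 3499 in KO, and the 10 club markers to 923 and 833 against 309.9, 289.7 and 225, and their part in the difference was not tested.

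In AT1-like cells Ptgds was at 18.1 and 20.2 CPM in Het and at 18.8, 31.8 and 22.6 in KO (log2 difference 0.34, SE 0.23, edgeR adjusted p = 0.481). In epithelial sums, which mix these classes with ciliated-like and club-like cells, it was at 12.6 and 15.1 CPM in Het and at 13.97, 16.9 and 19.8 in KO (log2 difference 0.23, adjusted p = 0.399). Mesothelial-like cells were at 13.2 and 21.6 CPM in Het and at 61.3, 25.6 and 36.3 in KO, without overlap and with KO1 highest.

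Slco2a1 (ENSMUSG00000032548, chromosome 9, 102988712 to 103096002, plus strand), the carrier that brings prostaglandins into cells for breakdown, was high in endothelium and alveolar epithelium. General capillary-like cells (118 to 227 CPM), AT2-like cells (117 to 167 CPM) and myofibroblast-like cells (70.8 to 201 CPM) overlapped in this order. AT1-like cells (49.2 to 98.3 CPM) followed and lay above mesothelial-like cells (19.4 to 34.4 CPM). The described immune classes were at 0 to 7.20 CPM, which spans the level of red-cell barcodes (3.46 to 6.497 CPM).

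Slco2a1 fell in KO endothelial cells. Endothelial sums were at 292 and 249 CPM in Het and at 146, 133 and 119 in KO, so that the lowest Het library lay above the highest KO library. The fit gave a 2.04-fold lower level (log2 difference -1.03, SE 0.12, edgeR adjusted p = 0.00295). In general capillary-like cells, the microvessel cells marked by Gpihbp1, Plvap and Aplnr, it was at 227 and 225 CPM in Het and at 138, 118 and 128 in KO (log2 difference -0.83, SE 0.12, edgeR adjusted p = 0.00321; 1.02% of genes passed in this class). Leaving out Het1 gave an adjusted p of 0.0529 in the endothelial sums, and the sex covariate one of 0.0954 in the general capillary-like cells.

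By vessel type, an unnamed endothelial cluster led by Ace, Ly6c1 and Scn7a was at 395 and 338 CPM in Het and at 171, 133 and 133 in KO. A cluster of cycling endothelial cells led by Top2a was at 228 and 227 CPM in Het and at 126, 97.5 and 117 in KO. In both, the groups did not overlap, as in general capillary-like cells. Arterial-like cells were at 366 and 324.5 CPM in Het and at 359.9, 279.7 and 249 in KO, and venous-like cells at 159.9 and 147 in Het and at 129, 176 and 164 in KO. Both overlapped between groups, with 14 to 43 arterial-like and 13 to 26 venous-like cells per library. The difference between vessel types was not tested.

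Aerocyte-like cells, the thin capillary cells of gas exchange marked by Car4 and Apln, had the highest Slco2a1 in Het, at 443 and 446 CPM. They numbered 110 and 61 cells in Het and 5, 3 and 5 in KO, where Slco2a1 was at 212, 292 and 217 CPM from 5, 6 and 8 UMIs. Without them, a choice made after seeing the data, endothelial sums were at 265 and 224 CPM in Het and at 146, 132 and 118 in KO (log2 difference -0.87, SE 0.12, edgeR adjusted p = 0.0153; 1.78% of genes passed). The 10 aerocyte markers summed to 1553 and 1698 CPM in Het and to 929.7, 725 and 832.5 in KO endothelial cells, and to 921.5 and 978 against 935, 768 and 776 in general capillary-like cells. Other parts of the endothelial sums moved too: the Ace-led cluster numbered 103 and 73 cells in Het and 26, 29 and 41 in KO, and lymphatic-like cells, at 2.26 to 81.2 CPM of Slco2a1, 9 and 6 against 31, 20 and 29. The 10 endothelial markers summed to 9252 and 9541 CPM in Het and to 6948, 6786 and 7022 in KO. The part of these shifts in the difference was not tested.

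**Figure D4:**
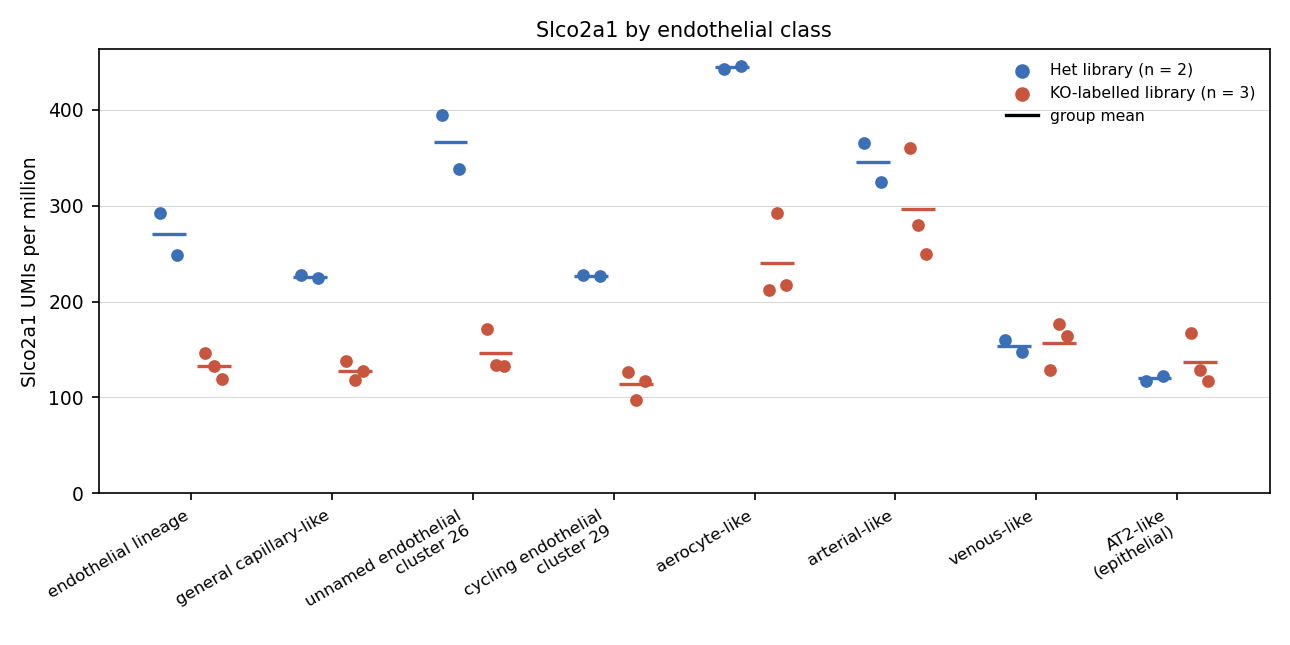
Slco2a1 level (CPM) in each Het (blue, n = 2) and KO-labelled (red, n = 3) library, with group means as lines, by endothelial class and in AT2-like cells. The groups are apart in general capillary-like cells, in clusters 26 (led by Ace and Ly6c1) and 29 (cycling cells) and in aerocyte-like cells, of which KO had 5, 3 and 5, and overlap in arterial-like, venous-like and AT2-like cells.

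In the epithelial sums, which leave out an AT1-led cluster of mixed cells, Slco2a1 lay the other way. Epithelial sums were at 58.5 and 62.5 CPM in Het and at 109, 77.7 and 84.0 in KO (log2 difference 0.50, SE 0.16, edgeR adjusted p = 0.0839). AT1-like cells were at 49.2 and 58.9 CPM in Het and at 98.3, 67.9 and 60.3 in KO (log2 difference 0.34, edgeR adjusted p = 0.340; 5.03% of genes passed in this class). AT2-like cells were at 117 and 122 CPM in Het and at 167, 128.5 and 117 in KO, a log2 difference of 0.03 with a 95% interval of -0.30 to 0.36. Neither sum passed the test, and the libraries overlapped in AT2-like cells. The AT1-led cluster left out is described below, and its own level was lower in every KO library than in both Het libraries. It held 35.2% and 36.5% of all Slco2a1 UMIs in Het and 8.38%, 7.82% and 10.9% in KO. The sums include an unnamed cluster led by Bex4, Cenpf and Cldn6, with 0 and 8 cells in Het and 13, 38 and 35 in KO. It held 0% and 0.913% of all Slco2a1 UMIs in Het and 3.72%, 12.6% and 7.18% in KO. The part of both clusters in the difference was not tested.

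In mesenchymal sums Slco2a1 was at 26.1 and 33.4 CPM in Het and at 17.4, 14.1 and 20.3 in KO (log2 difference -0.75, SE 0.16, edgeR adjusted p = 0.189). It was called lower in KO once mesothelial-like cells were left out (log2 difference -0.85, SE 0.16, edgeR adjusted p = 0.0471; 1.02% of genes passed). Myofibroblast-like cells, its main mesenchymal class, were at 121 and 201 CPM in Het and at 132, 70.8 and 107 in KO (log2 difference -0.62, SE 0.22, edgeR adjusted p = 0.197; 1.47% of genes passed). The Het and KO libraries overlapped there. Myofibroblast-like cells numbered 113 and 109 in Het and 96, 67 and 118 in KO. All mesenchymal cells numbered 597 and 612 against 917, 605 and 891. Alveolar fibroblast-like cells, at 2.89 to 9.88 CPM of Slco2a1, numbered 40 and 27 against 121, 89 and 103. Pericyte-like cells, at 0 to 8.70 CPM, numbered 17 and 12 against 71, 49 and 33. The part of these shifts in the mesenchymal difference was not tested.

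Over all kept cells Slco2a1 was at 61.6 and 55.3 CPM in Het and at 47.8, 40.03 and 39.4 in KO (log2 difference -0.49, SE 0.11, edgeR adjusted p = 0.0709). A cluster of mixed cells weighed in this value. It was led by the AT1 genes Ager, Aqp5 and Rtkn2, had a median of 44528 UMIs per cell, and all its cells carried markers of another lineage, so it entered no lineage sum. It numbered 118 and 107 cells in Het and 16, 19 and 23 in KO and held 35.2% and 36.5% of the Slco2a1 UMIs in Het and 8.38%, 7.82% and 10.9% in KO. Its own level was 214 and 202 CPM in Het and 178, 102 and 121 in KO.

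Ptger4 (ENSMUSG00000039942, chromosome 15, 5206661 to 5244187, minus strand), the EP4 receptor for prostaglandin E, was highest in dendritic-like cells at 58.2 to 94.6 CPM. Interstitial macrophage-like cells (38.1 to 58.8 CPM) overlapped them slightly and lay above adventitial fibroblast-like (19.6 to 34.2 CPM) and monocyte-like cells (23.3 to 25.1 CPM). Red-cell barcodes were at 0.0823 to 0.722 CPM. Immune sums were at 20.03 and 19.5 CPM in Het and at 23.0, 24.7 and 23.8 in KO (log2 difference 0.21, SE 0.07, edgeR adjusted p = 0.114). Interstitial macrophage-like cells were at 38.1 and 39.3 CPM in Het and at 47.0, 58.8 and 47.2 in KO (log2 difference 0.37, SE 0.16, edgeR adjusted p = 0.377). The KO libraries lay above the Het libraries in both without a call. Ttc33 lies on the other strand over the same stretch, and whether counting used the strand is not given in the sources used here, so reads of the 2 genes may not be told apart.

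Hpgd (ENSMUSG00000031613, chromosome 8, 56294585 to 56321043, plus strand) encodes 15-hydroxyprostaglandin dehydrogenase, the enzyme that inactivates prostaglandin E after uptake. Its highest levels were in interstitial macrophage-like cells (147 to 249 CPM), monocyte-like cells (147.5 to 221 CPM) and dendritic-like cells (66.8 to 164 CPM), and immune cells held 56.2% to 66.7% of its UMIs. Ciliated-like (59.1 to 121 CPM), adventitial fibroblast-like (53.0 to 102.5 CPM) and mesothelial-like cells (35.2 to 107 CPM) followed, and each overlapped its neighbour in this order. AT1-like and AT2-like cells had 0 to 1.86 CPM, within or below the level of red-cell barcodes (1.15 to 3.37 CPM). AT1-like and AT2-like cells were thus high in Slco2a1 with Hpgd no higher than in red-cell barcodes. The AT1-led cluster of mixed cells, which is in neither class, did have Hpgd. It held 6.91% and 9.58% of all Hpgd UMIs in Het and 0.485%, 0.283% and 0.801% in KO.

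Over all kept cells Hpgd was at 61.5 and 58.2 CPM in Het and at 51.6, 55.2 and 61.8 in KO, a log2 difference of -0.12 (SE 0.08). Endothelial and mesenchymal sums differed in opposite ways, while immune cells, which held 56.2% to 66.7% of the Hpgd UMIs, were level in sum. The part of each lineage, of cell numbers and of the AT1-led cluster of mixed cells in the whole-library value was not tested. The values that follow were used in choosing the gene and are given without a test.

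Endothelial Hpgd was at 81.5 and 90.7 CPM in Het and at 20.3, 30.3 and 35.4 in KO, a log2 difference of -1.56 (SE 0.19). General capillary-like cells were at 34.2 and 36.9 CPM in Het and at 13.6, 14.95 and 20.02 in KO (log2 difference -1.12, SE 0.25). The cycling endothelial cluster was at 60.3 and 54.4 CPM in Het and at 11.1, 14.2 and 17.4 in KO. In all of these the groups did not overlap. Aerocyte-like cells carried 218 and 248 CPM in Het. In KO they were at 0, 97.4 and 109 CPM from 0, 2 and 4 UMIs, where a count of 0 in KO1 is bounded at 3 counts, or 127 CPM. For KO2 and KO3 the exact Poisson 95% intervals, which cover counting error only, are 11.8 to 352 CPM in KO2 and 29.6 to 278 CPM in KO3. Without aerocyte-like cells the endothelial levels were 57.02 and 70.9 CPM in Het and 20.4, 30 and 34.9 in KO, a log2 difference of -1.12 (SE 0.20). Other parts of the endothelial sums still shifted. Lymphatic-like cells, at 3.6 to 22.2 CPM of Hpgd, numbered 9 and 6 in Het and 31, 20 and 29 in KO. The Ace-led cluster numbered 103 and 73 cells in Het and 26, 29 and 41 in KO. The part of these shifts in the difference was not tested. Arterial-like cells were at 61.5 and 68.3 CPM in Het and at 55.1, 61.6 and 95.6 in KO, with overlap, as for Slco2a1.

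Mesenchymal Hpgd was at 30.4 and 33.1 CPM in Het and at 53.8, 55.5 and 55.9 in KO, a log2 difference of 0.82 (SE 0.09). The KO libraries lay close together and above both Het libraries. Adventitial fibroblast-like cells were at 78.1 and 53.0 CPM in Het and at 86.5, 102.5 and 85.3 in KO (log2 difference 0.51, SE 0.18; 0.21 without Het2 and 0.82 without Het1). Mesothelial-like cells were at 35.2 and 54.5 CPM in Het and at 81.6, 96.8 and 107 in KO. An unnamed mesenchymal cluster led by Tcf21, Ogn and Col1a1 was at 43.7 and 70.3 CPM in Het and at 92.3, 87.4 and 101.3 in KO. The other described mesenchymal classes overlapped between groups. Alveolar fibroblast-like cells were at 48.1 and 14.5 CPM in Het and at 35.4, 67.3 and 47.1 in KO. Smooth muscle-like cells were at 47.8 and 7.26 CPM in Het and at 30.4, 20.1 and 23.2 in KO (log2 difference -0.21, SE 0.50), and myofibroblast-like cells at 2.59 to 8.87 CPM. Without mesothelial-like cells the mesenchymal log2 difference was 0.83 (SE 0.12).

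Immune Hpgd was level in sum, at 86.2 and 74.5 CPM in Het and at 81.7, 86.0 and 97.0 in KO (log2 difference 0.07, SE 0.08). Single immune groups were less even. Dendritic-like cells were at 97.4 and 66.8 CPM in Het and at 144, 164 and 112 in KO, higher in every KO library. An unnamed cluster led by Ccr2, S100a4 and Ear2 was at 215 and 180.4 CPM in Het and at 98.3, 57.7 and 112 in KO, without overlap. Alveolar macrophage-like cells were at 39.0 and 27.7 CPM in Het and at 19.2, 10.2 and 27.5 in KO (log2 difference -0.85, SE 0.26). Interstitial macrophage-like cells were at 240.2 and 206 CPM in Het and at 147, 206 and 249 in KO, and made up 161 and 154 cells in Het and 231, 274 and 325 in KO, so that their share of all Hpgd UMIs was 11.3% and 9.52% in Het and 19.3%, 22.2% and 25.2% in KO.

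Epithelial Hpgd was at 32.4 and 27.8 CPM in Het and at 18.2, 21.8 and 21.3 in KO (log2 difference -0.63, SE 0.12). Ciliated-like cells, its epithelial source, were at 85.3 and 81.4 CPM in Het and at 59.1, 73.7 and 121 in KO, with overlap. Mixed cells held 67.7% to 87.2% of the epithelial Hpgd UMIs. Without them the epithelial levels were 18.1 and 9.54 CPM in Het and 14.5, 14.96 and 16.97 in KO, and the log2 difference was 0.01 (SE 0.26). Most ciliated-like cells were left out with them, since 53.8% to 79.5% of that class were mixed in each library. The median of the class was 37001 to 71231.5 UMIs per cell. Doublets and single ciliated-like cells with many UMIs were not told apart.

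**Figure D5:**
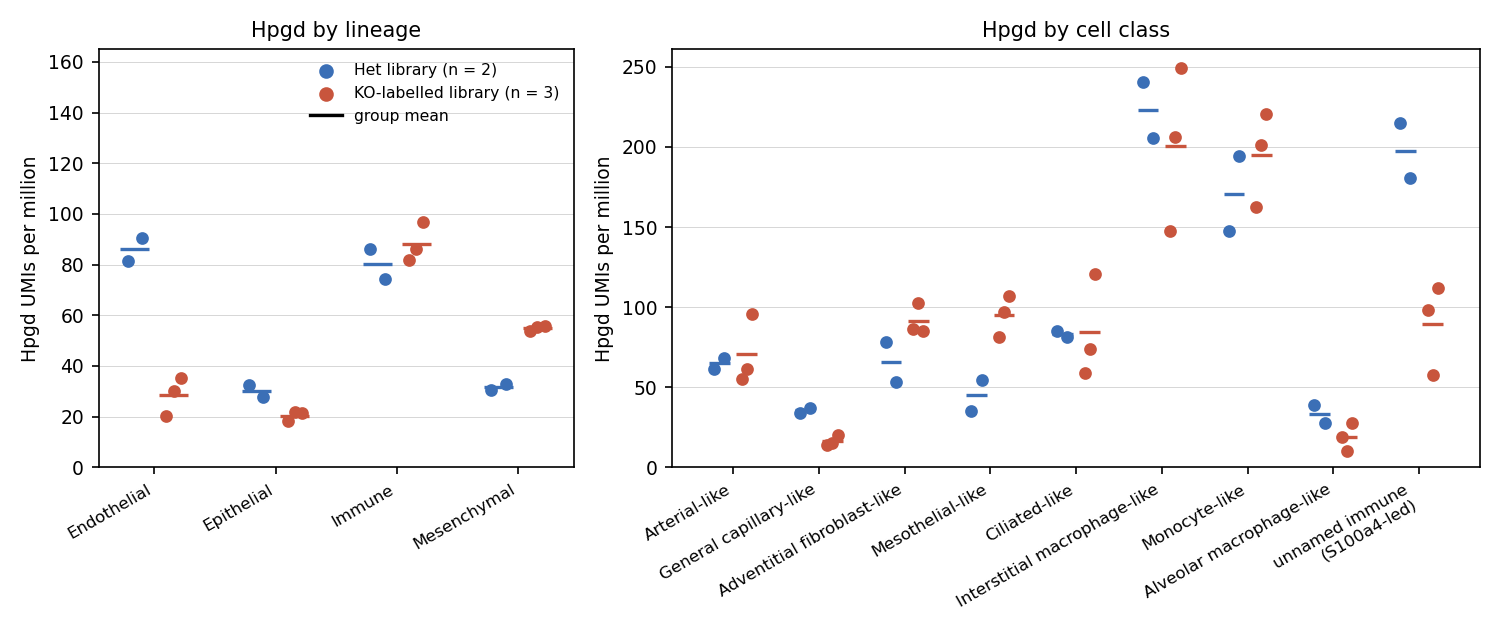
Hpgd level (CPM) in each Het (blue, n = 2) and KO-labelled (red, n = 3) library, with group means as lines, by lineage (left) and by class (right). KO lies below Het in endothelial sums (20.3 to 35.4 against 81.5 and 90.7 CPM) and above it in mesenchymal sums (53.8 to 55.9 against 30.4 and 33.1 CPM), while the immune libraries overlap.

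In the other classes that were tested, none of the 7 genes passed: 0 of 6 in adventitial fibroblast-like (0.426% of all genes passed), 0 of 3 in interstitial macrophage-like (1.25%), 0 of 3 in monocyte-like (0.00%), 0 of 4 in smooth muscle-like (0.00%), 0 of 4 in AT1-like, 0 of 3 in myofibroblast-like and 0 of 2 in neutrophil-like cells. At an unadjusted edgeR p under 0.05 these counts were 0, 2, 0, 1, 0, 1 and 1 in the same order, and DESeq2 called 1 gene, Ptgs2 in neutrophil-like cells. Of the 2 genes tested in general capillary-like cells 1 passed, of the 4 in alveolar macrophage-like cells 1, and of the 5 in AT2-like cells 1, as given above.

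The rest of the pathway was read from a list of 26 other genes for the release of arachidonic acid, other synthases, transport, receptors and the later steps of breakdown. Over all kept cells 23 were tested. Of these, 2 were called higher in KO and 0 lower (median log2 difference -0.06), Hpgds and Prxl2b. In immune sums 2 of 19 were called higher (median 0.03), in endothelial sums 1 of 14 lower (-0.01), in epithelial sums 2 of 18 higher and 1 lower (-0.19), and in mesenchymal sums 0 of 20 (-0.10; 2 at an unadjusted edgeR p under 0.05). Among the tested classes, AT2-like cells had 1 of 14 called higher and 1 lower, and the other 9 had none called. These shares can be read against those over all genes, which were 3.69% in whole-library, 7.88% in immune, 5.00% in endothelial, 10.7% in epithelial and 0.0575% in mesenchymal sums and 11.6% in AT2-like cells, and several are near them.

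Among synthases, Hpgds, the haematopoietic synthase of prostaglandin D, rose in immune sums from 20.03 and 19.4 CPM in Het to 49.3, 40.2 and 42.1 in KO (log2 difference 1.08, SE 0.10, edgeR adjusted p = 0.000983). Its highest level was in interstitial macrophage-like cells, where it was at 191 and 218 CPM in Het and at 196, 233 and 237 in KO (log2 difference 0.09, SE 0.11, edgeR adjusted p = 0.827) and which numbered 161 and 154 cells in Het and 231, 274 and 325 in KO. Prxl2b, a synthase of prostaglandin F, rose in immune sums from 10.9 and 10.8 CPM to 25.5, 19.01 and 19.01 (log2 difference 0.88, SE 0.14, edgeR adjusted p = 0.00836), a call lost without either Het library (adjusted p of 0.0669 and 0.0933) and with the sex covariate (0.0897). Over all kept cells their log2 differences were 0.80 (adjusted p = 0.0168) and 0.62 (0.0398). With the sex covariate these adjusted p-values were 0.161 and 0.242, and with Het1 left out 0.146 and 0.265.

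Among receptors, Tbxa2r, the thromboxane receptor, fell in endothelial sums from 36.3 and 36.9 CPM to 17.5, 13.4 and 14.9 (log2 difference -1.26, SE 0.14, edgeR adjusted p = 0.00289). Aerocyte-like cells were its highest class, at 109 and 116 CPM in Het and at 212, 0 and 163 in the 5, 3 and 5 cells of KO. Without them the adjusted p was 0.0624 (log2 difference -0.76). Without Het1 it was 0.0529. Ptger1, the EP1 receptor, was called higher in epithelial sums at 1.49 and 1.54 CPM in Het and 4.52, 3.51 and 2.85 in KO (log2 difference 1.15, edgeR adjusted p = 0.0464), but the call was lost under 10 of 15 alternatives, DESeq2 among them (0.0535).

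Among phospholipases and reductases, Pla2g4a, the cytosolic phospholipase that frees arachidonic acid, fell in AT2-like cells from 12.4 and 11.8 CPM to 5.16, 4.17 and 4.64 (log2 difference -1.56, SE 0.22, edgeR adjusted p = 0.00162; 0.0525 without Het1). In epithelial sums its log2 difference was -0.99 (adjusted p = 0.0420; 0.362 without mixed cells, and lost under 6 of 15 alternatives). Ptgr1, a reductase of the breakdown product, was called higher in AT2-like cells, with 14.1 and 17.7 CPM in Het and 27.6, 30.8 and 25.4 in KO (log2 difference 0.65, SE 0.16, edgeR adjusted p = 0.0296), and lost the call under 6 of 15 alternatives. Pla2g4b was called higher in epithelial sums (log2 difference 0.79, edgeR adjusted p = 0.0384), and lost the call under 10 of 15 alternatives. The 2 clusters of the AT2-like class differed in number between groups, as given for Ptgds. The part of that shift in the AT2-like calls of Pla2g4a and Ptgr1 was not tested.

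The genes whose mean level over the 15 described classes followed a member most closely were sought among 12670 genes, by Pearson correlation of log2(CPM + 1). They were Rmnd5a for Ptgs1 (r = 0.83), Dennd1c for Ptgs2 (0.95), Lrrn3 for Ptges (0.77), Tenm3 for Ptgis (0.96), Rictor for Slco2a1 (0.93), Plekhj1 for Ptger4 (0.92) and Abraxas2 for Hpgd (0.88). The classes share libraries and differ in depth, and the highest of many correlations is large by choice, so these values only describe the pattern. The next closest genes were Stradb and Dnajb9 for Ptgs1, Clec12a and Apobr for Ptgs2, Ncoa1 and Tmem216 for Ptges, and Rspo3 and Gas1 for Ptgis. They were Pitpnm2 and Tjp1 (Slco2a1), Slc35b2 and Tifa (Ptger4) and Dpy19l1 and Wdr44 (Hpgd).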

How the data were processed

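Per the labels' protocols, embryonic lungs were dissociated with collagenase and DNase, red cells were lysed, and libraries were made with the Chromium Next GEM 3′ kit. The deposited matrices hold counts of UMIs per gene and barcode, made with Cell Ranger 4.0.0 on mm10, per the submitters' processing notes. Whether the matrices were filtered or counted by strand is not given in the sources used here.

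From these counts, cells were required to show 500 or more genes and no more than 15% of UMIs from mitochondrial genes, barcodes under 500 genes with over 50% haemoglobin UMIs were read as red-cell barcodes, and 78 to 186 likely doublets per library were removed by a simulated-doublet score. Cells were clustered without the members and pathway genes (2000 variable genes, 30 principal components, 15 neighbours, Leiden resolution 2; Python 3.11.15, leidenalg 0.10.2, igraph 0.11.9). Clusters were named from marker lists, with details of the naming rule set after clusters were seen. UMIs were summed per library and class, lineage or library, and tested with edgeR 4.0.16 (R 4.3.3), its default low-count filter, TMM scaling and the quasi-likelihood test, where every library had at least 50 cells. P-values were adjusted by Benjamini-Hochberg over all genes of a fit and called under 0.05. Counts were simulated from the mean profile and sizes of these libraries, with 200 genes changed by a log2 of 1. The share recovered of the changed genes that were tested was 84.3% of 197 in whole-library, 82.0% of 194 in epithelial, 76.4% of 199 in endothelial, 84.1% of 195 in mesenchymal and 86.2% of 195 in immune sums. False calls numbered 6, 9, 2, 13 and 10 in the same order. Every gene had the same dispersion, and no shift in cell types or sex was simulated. Real genes that vary more between embryos may thus be recovered less often.

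Members and gene lists were chosen with earlier results of these data known. Named genes are the 8 members, the pathway genes that were called, and the 3 genes most similar to a member, which for Ptgds are not reported here. The cluster leaders in the text were picked with their values in view. The alternatives tried comprised DESeq2 1.42.0, library-size scaling, no low-count filter, each library left out, a replicate block, a sex covariate, doublets kept, a stricter cell filter (1000 genes, 10% mitochondrial), all barcodes, mixed cells left out, Leiden resolution 1 and clustering with the pathway genes. Sums without aerocyte-like, mesothelial-like, alveolar macrophage-like or Atp6v0d2-led cells were added after seeing the data.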

Additional observations from a re-analysis of the deposited data

Results flagged for a closer look

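Several members had every KO library above both Het libraries in one lineage and every KO library below both in another. The difference between lineages was not tested in any of these, and each value is a fitted log2 difference of KO over Het. Hpgd, whose opposite directions were used in choosing it, was at 0.82 in mesenchymal sums against -1.56 in endothelial and -0.63 in epithelial sums. Slco2a1 was at 0.50 in epithelial sums, which for every gene leave out the AT1-led cluster of mixed cells. In that cluster the level of Slco2a1 was lower in every KO library than in both Het libraries. It was at -1.03 in endothelial and -0.75 in mesenchymal sums, and at -0.42 in immune sums, where its level was under that of red-cell barcodes. Ptges was at 0.38 in mesenchymal sums against -1.095 in epithelial and -2.11 in immune sums. Ptgs1 was at 0.44 in epithelial and 0.16 in immune sums against -0.48 in endothelial sums. Hpgd and Slco2a1 shared the endothelial direction and differed in the mesenchymal one. Without mixed cells the epithelial values were 0.01 for Hpgd, -0.09 for Ptges, 0.08 for Ptgs1 and 0.32 for Slco2a1, and the endothelial value of Ptgs1 was 0.30, so that its opposite directions were not seen there.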

How the results depend on the processing

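Of the 7 tested members, 1 was called in whole-library sums, against 3 with DESeq2, 2 with the stricter cell filter, 0 with the sex covariate, 0 without the Atp6v0d2-led macrophage cluster and 0 to 2 with a library left out. Over the lineages 3 calls became 7 with no low-count filter and 2 to 4 with a library left out. Over the classes 3 calls became 5 with library size scaling, 7 with no low-count filter, 1 with the sex covariate, 5 with doublets kept and 2 to 6 with a library left out. With no low-count filter the calls over all genes changed too. Endothelial calls went from 591 of 11813 genes to 1484 of 18939, and epithelial calls from 1567 of 14702 to 2688 of 21734. Immune calls went from 1091 of 13847 to 1319 of 20886, and mesenchymal calls from 8 of 13902 to 288 of 21392. The class counts were not set against such totals. Ptges in alveolar macrophage-like cells turned from -2.13 to 0.045 without the Atp6v0d2-led cluster. Hpgd in epithelial sums turned from -0.63 to 0.012 without mixed cells. Those values rest on these cells, which for Hpgd include 53.8% to 79.5% of the ciliated-like cells. Ptges in immune sums kept its call under 17 of 17 alternatives (log2 difference -2.33 to -0.85). Other causes were not tested. The highest class was the same for 6 to 8 of the 8 members under the alternatives, and general capillary-like cells gave no value at Leiden resolution 1. Over all genes, whole-library calls fell from 653 to 2 without Het1, 3 without Het2 and 1 with the sex covariate, and were 2089 with DESeq2. Library size scaling moved the share of calls that were higher in KO from 41.9% to 61.7% in immune and from 35.8% to 51.8% in epithelial sums.

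Replicate numbers 1 and 2 occur in both groups but nothing in the labels ties them, and same-numbered libraries deviated together with correlations of -0.22 to 0.18. With the replicate block the members called were 0 in whole-library sums and 7 over the classes, and whole-library calls over all genes were 6.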

Other observations

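Classes too small in some library to be described above also had some of the members. Basophil- or mast-like cells had Ptgs2, above every described class, at 1439 and 1693 CPM in Het and at 2114, 1205 and 1649 in KO, from 33, 29, 12, 48 and 33 cells, which overlapped between groups. Megakaryocyte- or platelet-like cells had Ptgs1, which in platelets feeds thromboxane synthesis, at 251 and 198 CPM in Het and at 105 and 193 in KO1 and KO2. KO3 had 0 Ptgs1 UMIs in 6 such cells, where a count of 0 allows up to 163 CPM. The thromboxane synthase gene Tbxas1 was at 307 and 182 CPM in Het and at 116, 219 and 108 in KO in the same cells. Lymphatic-like cells had Slco2a1 at 81.2 and 41.3 CPM in Het (13 and 13 UMIs) and at 15.8, 3.08 and 2.26 in KO (13, 1 and 3 UMIs), with 9 and 6 cells in Het and 31, 20 and 29 in KO.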
